A study of Mus musculus with 36 samples.

Results

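Transthyretin (Ttr), Kl, Sostdc1, Folr1, Clic6, Kcnj13, Kcne2, Slc4a5, Aqp1 and Otx2 are 10 genes of the choroid plexus epithelium, out of 36172 gene entries in the deposited table of mouse hippocampus RNA. They were taken by name as known choroid plexus genes, but earlier results of these data were known when they were chosen. Their levels are given as CPM, the estimated counts of a gene per 1000000 counts of its library. The mice carried the Cx3cr1-NuTRAP genotype, in which cre, inducible with tamoxifen, is made where the Cx3cr1 promoter is active, that is in microglia and other macrophages, and the ribosomes of those cells then carry a fluorescent tag. Translating ribosome affinity purification (TRAP) then pulls the tagged ribosomes down with an antibody against the tag, while the input is cleared homogenate of both hippocampi set aside before the pulldown.

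All animals shared this genotype and the induction of cre, and differed in age and in whether the labels call the induction early or late. Inputs came from 10 young animals with early induction (6 months old, 5 females and 5 males), 12 old animals with early induction (22 months, 7 females and 5 males) and 7 old animals with late induction (22 months, 5 females and 2 males). TRAP libraries were made from each of the 7 animals with late induction, and TRAP of early-induced animals was not analysed here. The promoter behind the cre limits the model to the cells in which it is active, and the choroid plexus epithelium is not a cell type that it is meant to mark.

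The choroid plexus is a folded epithelium with a vascular core that hangs into the brain's ventricles and secretes cerebrospinal fluid. Its cells pump ions across their apical face, water follows, and they release carrier proteins and growth factor regulators into the fluid. The plexus lies beside the hippocampus in the lateral ventricle, so that a dissected hippocampus can carry more or less of it. In bulk tissue, fewer cells of a type and less RNA per cell cannot be told apart.

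The 36 libraries held 12.9 to 20.4 M estimated counts each. Defining genes of the labelled tissue were present in every group: the neuronal gene Camk2a had group medians of 2752 to 3819 CPM, and Prox1, a gene of dentate granule cells, of 27.2 to 40.7 CPM. Cx3cr1 itself lay between 22.5 and 45.5 CPM in the inputs and between 556 and 808 CPM in TRAP. The 12 genes of the microglia list summed to 365 to 655 CPM in the inputs and to 8127 to 11251 CPM in TRAP.

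Ttr encodes the carrier of thyroid hormone and of retinol-binding protein in the cerebrospinal fluid, and was by far the most abundant of the 10 genes. In the young inputs its lowest value was 25.2 CPM, its median 1801 CPM and its highest 2796 CPM. In the old early-induced inputs the same 3 values were 22.8, 78.3 and 3848 CPM, and in the old late-induced inputs they were 27.3, 1803 and 3194 CPM. The 3 groups overlapped over their whole width, and each of them held libraries of both a low and a high kind. Over all 29 inputs no value lay between 154 and 1561 CPM, a 10.2-fold gap, with 14 inputs below it and 15 above it.

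These 15 inputs are called Ttr-high and the other 14 Ttr-low from here on. Both names describe the libraries and are not groups of the study, and no test was made between them. The Ttr-high inputs comprised 6 of 10 young, 4 of 12 old early-induced and 5 of 7 old late-induced animals. By sex they comprised 8 of 17 females and 7 of 12 males. Among females these were 4 of 5 young, 1 of 7 old early-induced and 3 of 5 old late-induced animals, and among males 2 of 5, 3 of 5 and 2 of 2 in the same order. Sequencing depth covered the same range on both sides, 13.2 to 18.3 M counts in the Ttr-high and 12.9 to 18.4 M in the Ttr-low inputs.

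**Figure D1:**
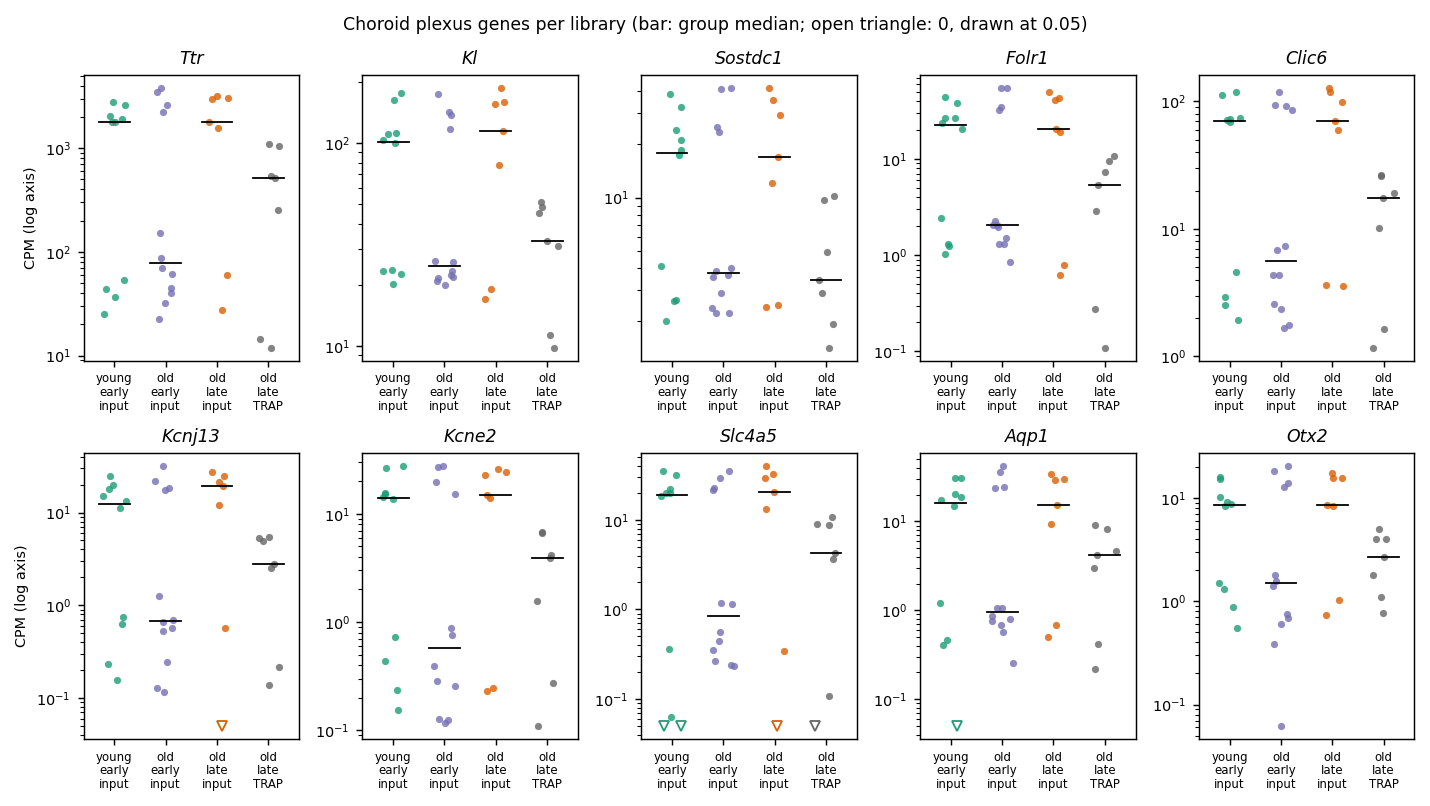
Level of each of the 10 genes in all 36 libraries (CPM, log axis, 1 point per library, bar at the group median, open triangles for values of 0), by group. In every panel the inputs form a low and a high set with no value in between, for Ttr below 154 and above 1561 CPM, and each input group holds both.

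The other secreted products divided the inputs at the same place. Kl (chr5:150952607-150993817, + strand) encodes klotho, a co-receptor for a fibroblast growth factor that is also shed into the fluid. Its highest value in a Ttr-low input was 26.2 CPM and its lowest in a Ttr-high input was 78.0 CPM, the same 14 and 15 libraries. Kl did not approach 0 anywhere: its Ttr-low values ran from 20.3 to 23.7 CPM in 4 young, from 20.03 to 26.2 CPM in 8 old early-induced and from 17.1 to 19.1 CPM in 2 old late-induced inputs. Those libraries thus sat close to one level of Kl while their Ttr differed from 22.8 to 154 CPM.

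Sostdc1 (chr12:36314169-36318452, + strand) encodes a secreted antagonist of bone morphogenetic proteins. It ran from 2.02 to 4.12 CPM in the Ttr-low and from 12.0 to 41.9 CPM in the Ttr-high inputs. With Kl it had the narrowest gap of the 10 genes, 2.92-fold against 2.98-fold for Kl. Both genes kept a measurable level in every Ttr-low input.

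Folr1 (chr7:101858331-101870788, - strand) encodes the folate receptor alpha, which carries folate across the epithelium into the fluid. Its median was 22.3 CPM in the young, 2.05 CPM in the old early-induced and 20.6 CPM in the old late-induced inputs. The Ttr-low inputs ended at 2.43 CPM and the Ttr-high inputs began at 19.04 CPM, so that the median of a group followed how many of its libraries lay on either side.

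Of the channel and transporter genes, Clic6 (chr16:92498147-92541241, + strand), a member of the chloride intracellular channel family, was the most abundant. It ran from 1.67 to 7.37 CPM in the Ttr-low and from 59.9 to 129 CPM in the Ttr-high inputs. Kcnj13 (chr1:87386284-87394729, - strand), an inwardly rectifying potassium channel, ended at 1.25 CPM in the Ttr-low inputs and began at 11.2 CPM in the Ttr-high inputs. Kcne2 (chr16:92292389-92298133, + strand), a beta subunit of potassium channels, had a gap of 15.8-fold, from 0.87 to 13.8 CPM, the widest of the 10 genes.

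Slc4a5 (chr6:83237375-83304945, + strand), a sodium bicarbonate cotransporter, lay between 0 and 1.19 CPM in the Ttr-low and between 13.2 and 40.1 CPM in the Ttr-high inputs. It had no count in 3 Ttr-low inputs, 2 of them young and 1 old late-induced, where 3 counts, the limit that a count of 0 allows, would be 0.177 to 0.233 CPM. Aqp1 (chr6:55336299-55348555, + strand), the water channel of the apical membrane, ended at 1.21 CPM in the Ttr-low inputs and began at 9.37 CPM in the Ttr-high inputs. Kcnj13, Kcne2, Slc4a5 and Aqp1 were thus near the floor of detection in some Ttr-low inputs, where Kl, Sostdc1 and Clic6 were not.

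Otx2 (chr14:48658184-48662872, - strand) encodes a homeobox transcription factor that the choroid plexus needs to form and to keep its identity. It ran from 0.06 CPM, a single count in 1 library, to 1.81 CPM in the Ttr-low and from 8.28 to 20.5 CPM in the Ttr-high inputs. A transcription factor, 2 secreted products beside Ttr, a receptor and 5 channels or transporters therefore split the 29 inputs into the same 15 and 14. The share of all genes that did so is not given here, and genes that vary together are not separate observations.

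Per kilobase of annotated exon, the median level of the Ttr-high inputs was 2200 CPM per kb for Ttr, followed by Clic6 at 23.5, Folr1 at 15.2, Kcnj13 at 15.1, Kl at 14.7, Sostdc1 at 14.1, Kcne2 at 11.2, Aqp1 at 9.38, Slc4a5 at 3.90 and Otx2 at 3.32 CPM per kb. Folr1, Kcnj13, Kl and Sostdc1 thus lay close together on this scale, which sets genes side by side per length, and no test was made between them. For Clic6, Slc4a5 and Otx2 the annotated start lay apart from the deposited one. The exonic length of these genes as counted may therefore differ, and with it their place in this order.

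Reads of some of these genes could also belong to neighbours. Of the exonic bases of Kcnj13, 623 (49.1%) overlap exons of Gigyf2 on the opposite strand, and Otx2 shares 154 bases with its antisense transcript Otx2os1 and 168 with Gm49154 on its own strand. Whether the counting used strand is not given in the sources used here. Kcnj13 had 0 counts in 1 Ttr-low input, and at most 1.25 CPM in the others.

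The spread of the 10 genes between animals of 1 group was among the widest in the tissue. On the log2 CPM scale, with each group's mean removed, the standard deviation over the 29 inputs was 3.11 for Slc4a5, 2.85 for Ttr, 2.73 for Kcne2 and 2.68 for Kcnj13, against a median of 0.15 over 14948 genes. These 4 genes ranked 7th, 9th, 10th and 12th of all genes tested, and the narrowest member, Kl, at 1.29, ranked 68th.

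Other genes of the same epithelium were described with a list of 36 further choroid plexus genes. Of these, 31 divided the inputs into the same 15 and 14 with no overlap, and the 5 that did not were Slc12a2, Slc22a8, Slc29a4, Car14 and Cldn3. No gene did so among 9 ependymal, 11 stromal and meningeal, 12 microglial, 9 neuronal, 10 astrocyte, 11 oligodendrocyte or 10 endothelial markers. The share of all genes that divided the inputs in this way is not given here, so these counts and that of the 10 genes stand without it. The summed level of the ependymal list ran from 33.4 to 71.5 CPM in the Ttr-low and from 48.2 to 119 CPM in the Ttr-high inputs. The stromal list ran from 89.1 to 140 CPM and from 112 to 276 CPM in the same order, and the neuronal list from 11777 to 12662 CPM and from 10831 to 12010 CPM. All 3 lists overlapped between the Ttr-low and Ttr-high inputs, none of their genes was at 0 in all libraries, and their part in the levels of the 10 genes was not tested.

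The genes whose levels followed the mean of the 10 most closely were also sought over the 29 inputs, by a correlation of log2 CPM with group means removed. The 8 with the highest Pearson r outside the 10 were Enpp2 (0.996), Ace (0.990), Cldn2 (0.990), F5 (0.988), Angptl2 (0.988), Slc2a12 (0.988), Abca4 (0.986) and 1500015O10Rik (0.985). Enpp2 encodes autotaxin, a secreted enzyme that makes lysophosphatidic acid, and Cldn2 encodes a claudin of leaky epithelia. Enpp2 ran from 142 to 297 CPM in the Ttr-low and from 946 to 1894 CPM in the Ttr-high inputs. Of the 14948 genes, 140 had an r over 0.9, among them 30 of the 36 further choroid plexus genes, but no ependymal or stromal marker. All 10 members were among the 140 as well, but each of them is part of the mean it was compared with. The libraries fall into separate low and high sets, so these values rest on the difference between the sets and are given as a description.

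Whether the 10 genes also moved together among the Ttr-high inputs was examined within those 15 libraries alone. Group means were not removed here, and libraries were permuted across the 3 groups, so differences between groups enter these values. The median of Ttr was 1991 CPM in the young, 3054 CPM in the old early-induced and 2959 CPM in the old late-induced Ttr-high inputs. All 9 other genes correlated with Ttr in these 15 libraries, with adjusted permutation p-values of 0.00244 or less over the 9 tests. The share of all genes that correlated with Ttr in the same libraries is not given here, so this count stands without it. Pearson r was 0.98 for Folr1 (Spearman rho 0.96), 0.97 for Otx2 (rho 0.93), 0.94 for Sostdc1 (rho 0.94), 0.93 for Aqp1 (rho 0.91) and 0.91 for Kcne2 (rho 0.88). It was 0.86 for Clic6 (rho 0.83), 0.84 for Kl (rho 0.80), 0.83 for Kcnj13 (rho 0.81) and 0.73 for Slc4a5 (rho 0.72). Without the 2 libraries farthest from the median of Ttr, r lay between 0.83 and 0.97 for the 9 genes. Over all 15 libraries r was lowest for Slc4a5, the bicarbonate cotransporter, and highest for the receptor Folr1 and the transcription factor Otx2. Without those 2 libraries Slc4a5 (0.83) and Kcnj13 (0.84) were close together, and no test was made between the r values.

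Among the 14 Ttr-low inputs, counts were small and fewer genes followed Ttr. Group means were not removed here either, and the share of all genes that followed Ttr in these libraries is not given. Pearson r was 0.81 for Clic6 (Spearman rho 0.82, adjusted permutation p = 0.00225) and 0.81 for Kcnj13 (rho 0.75, adjusted permutation p = 0.00225), and r was 0.63 and 0.77 without the 2 libraries farthest from the median of Ttr. Slc4a5 (r = 0.72), Kcne2 (r = 0.69) and Kl (r = 0.60) also passed over the 9 tests, with adjusted permutation p-values of 0.0111, 0.0139 and 0.0443, but fell to 0.48, 0.37 and 0.25 without those 2 libraries. By rank, Slc4a5 passed (Spearman rho 0.66, adjusted permutation p = 0.0354), while Kcne2 (rho 0.56, adjusted permutation p = 0.0851) and Kl (rho 0.49, adjusted permutation p = 0.120) did not, so that the relations of Kcne2 and Kl rest on those libraries. Aqp1 (r = 0.51), Sostdc1 (r = 0.41), Otx2 (r = 0.31) and Folr1 (r = 0.28) did not pass, with adjusted permutation p-values from 0.0977 to 0.331.

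**Figure D2:**
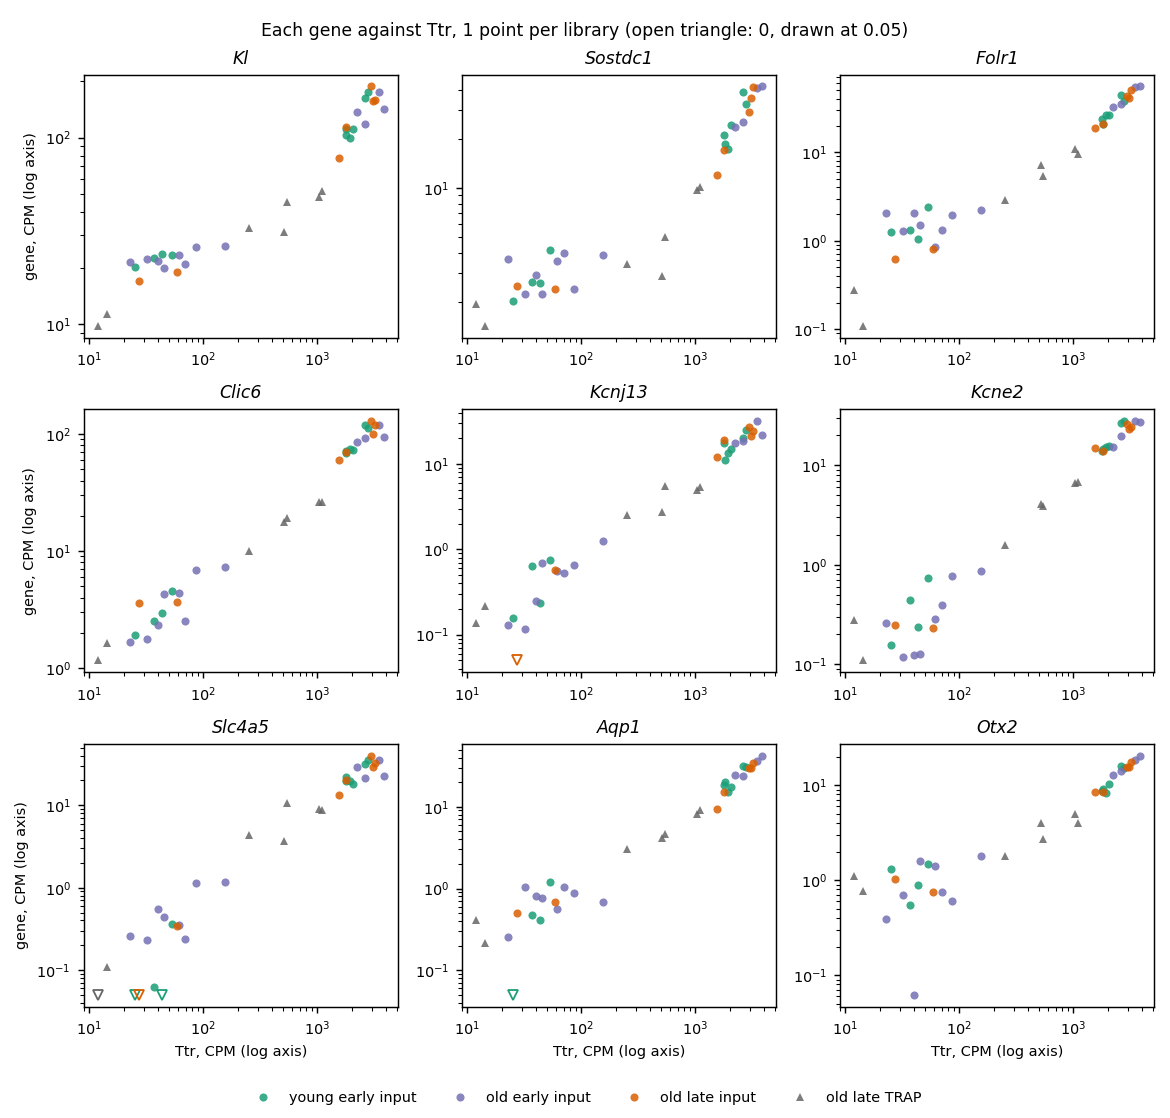
Level of each of the other 9 genes against Ttr (CPM, both axes log), 1 point per library, circles for inputs by group and triangles for TRAP. The Ttr-high inputs, above 1561 CPM of Ttr, rise together in all 9 panels, and Kl and Sostdc1 level off at 17.1 to 26.2 and 2.02 to 4.12 CPM in the Ttr-low inputs.

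Each gene was also expressed per 100 counts of Ttr of the same library. Over the 15 Ttr-high inputs, Otx2 had 0.43 to 0.61 counts per 100 counts of Ttr, with the smallest coefficient of variation of the 9 genes (8.33%). Kl had 3.68 to 6.35 counts per 100 of Ttr, Clic6 2.43 to 4.54 and Folr1 1.14 to 1.69. Sostdc1, Aqp1, Slc4a5, Kcne2 and Kcnj13 all had between 0.58 and 1.47 counts per 100 of Ttr, and Slc4a5 varied the most (coefficient of variation 19.97%). While the level of Ttr differed 2.46-fold among these 15 inputs, most proportions differed less: 1.42-fold for Otx2, 1.46-fold for Kcne2 and 1.47-fold for Folr1 between the lowest and highest library, up to 2.30-fold for Slc4a5.

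In the 14 Ttr-low inputs the proportions spread more widely. Kl had 17.02 to 94.9 counts per 100 of Ttr there, wholly above its range in the Ttr-high inputs, and Sostdc1 had 2.52 to 16.1, also wholly above. These inputs were set apart by low Ttr, the denominator here. A higher proportion of any gene that differed less than Ttr is therefore built into the split. Clic6 had 3.66 to 13.2, Folr1 1.35 to 9.04 and Otx2 0.15 to 5.23, which overlapped the Ttr-high range. Kcne2 (0.28 to 1.36), Kcnj13 (0 to 1.72), Slc4a5 (0 to 1.38) and Aqp1 (0 to 3.30) spread to both sides of it.

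**Figure D3:**
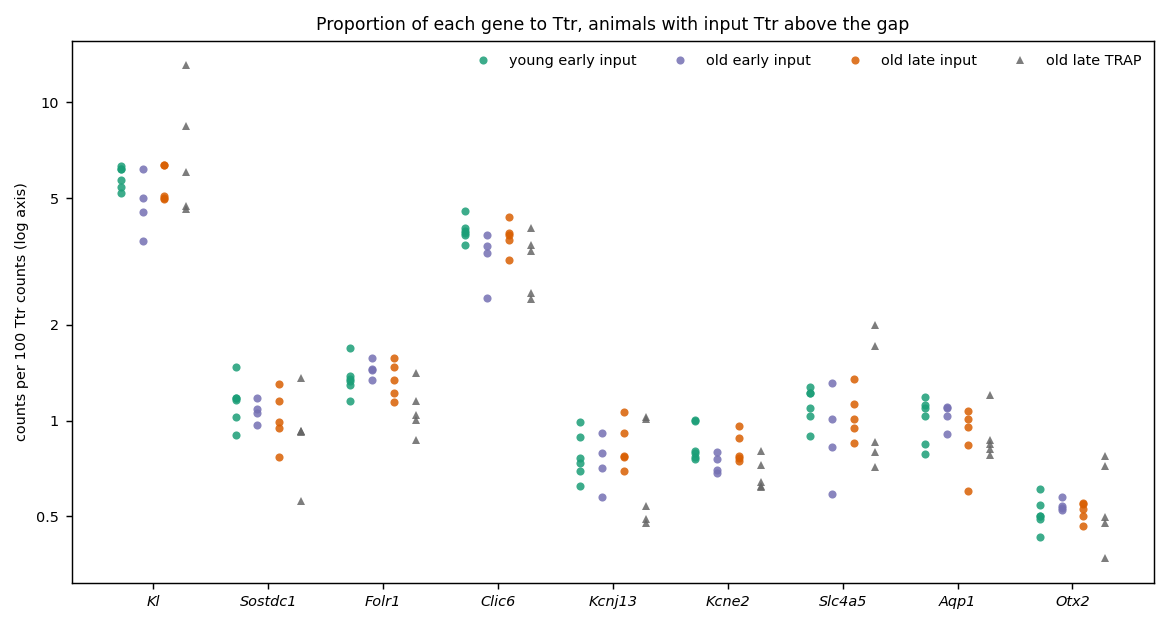
Counts of each gene per 100 counts of Ttr (log axis), 1 point per library, in the animals whose input was Ttr-high, by group. The 3 input groups overlap for every gene, Otx2 spans 0.43 to 0.61 in the inputs, and in TRAP Kl reaches 13.1 and Slc4a5 1.99.

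Proportions were compared between the 3 input groups in 27 two-sided permutation tests, 9 genes by 3 pairs of groups. Over all 29 inputs no test passed after adjustment, and the smallest unadjusted permutation p was 0.0524 for Kcne2 between old early-induced and young inputs (adjusted p = 0.768). Within the Ttr-high inputs alone, also no test passed. The smallest p was that of Clic6, which had a median of 3.45 counts per 100 of Ttr in 4 old early-induced inputs and 3.91 in 6 young inputs, a difference of -0.28 on the log2 scale (exact permutation p = 0.00952, adjusted 0.257). Of the 4 old early-induced values, 2.43, 3.37 and 3.53 lay below all 6 young values (3.56 to 4.54), and the highest, 3.82, lay among them.

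Differences in level between the labelled groups of inputs were tested across all 14948 genes with edgeR's quasi-likelihood test and sex as covariate, with calls at a Benjamini-Hochberg adjusted p under 0.05. In old early-induced against young inputs, 0 of the 10 genes were called, against 25.6% of all genes. Their log2 fold changes ran from -0.92 (Kcne2) to -0.51 (Otx2), with a median of -0.67 against 0.01 over all genes and standard errors from 0.49 to 1.00. For Ttr it was -0.79 ± 1.00 (SE, edgeR adjusted p = 0.594), and ran from -1.81, without old early-induced animal 8, to -0.55 with 1 input left out. Of the 36 further choroid plexus genes, edgeR called 0, with 0 at an unadjusted p under 0.05.

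In old late-induced against young inputs, again 0 of the 10 were called, against 34.5% of all genes, with log2 fold changes from 0.19 (Sostdc1) to 0.47 (Kcnj13) and a median of 0.33, against 0.01 over all genes. For Ttr it was 0.32 ± 1.06 (SE, edgeR adjusted p = 0.843). Without old late-induced animal 6, 8 of the 10 genes lay between -0.18 and -0.01, while Kcnj13 and Otx2 stayed above 0, and leaving out no other single input turned a sign. In females alone all 10 lay between -0.63 and -0.28. Among the 36 further genes 2 rose: Car14, a membrane-bound carbonic anhydrase, by 0.64 ± 0.23 on the log2 scale (SE, edgeR adjusted p = 0.0280), and Slc12a2, the sodium, potassium and chloride cotransporter, by 0.27 ± 0.10 (edgeR adjusted p = 0.0415). Both belong to the 5 of these genes whose levels did not separate the Ttr-low from the Ttr-high inputs.

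In old late-induced against old early-induced inputs, 0 of the 10 were called, against 0.0334% of all genes. The 10 log2 fold changes ran from 0.77 (Sostdc1) to 1.22 (Kcne2) around a median of 1.008, with 1.11 ± 1.04 for Ttr (SE, edgeR adjusted p = 0.708), which ran from 0.82 to 2.04 with 1 input left out. In males against females, 0 of the 10 were called, against 0.174% of all genes. There the log2 fold changes ran from 0.50 (Kl) to 1.07 (Aqp1) around a median of 0.93, with 1.05 ± 0.87 for Ttr (SE, edgeR adjusted p = 0.661), which ran from 0.82 to 1.92 with 1 input left out. The highest value of both ranges was that without old early-induced animal 8, the 1 female of its group with a Ttr-high input. In these 4 comparisons none of the 10 genes reached an unadjusted p under 0.05 in edgeR, and DESeq2 and limma voom also called 0. The 10 genes lay on the same side of 0 in each comparison, and since they moved together between libraries these are not 10 separate measurements. The biological coefficient of variation between inputs ran from 75.1% (Kl) to 157% (Slc4a5), and differences of these sizes were not detectable against that spread.

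The comparison of TRAP with input asked what the pulldown of Cx3cr1-tagged ribosomes kept of these genes in the 7 old late-induced animals. Ttr was lower in TRAP in all 7. In animal 1 it went from 3194 CPM in the input to 1044 CPM in TRAP, in animal 2 from 3084 to 1092 CPM, and in animal 5 from 1561 to 515 CPM. In animal 6 it went from 2959 to 538 CPM and in animal 7 from 1803 to 251 CPM. The 2 animals with a Ttr-low input had 59.3 and 14.3 CPM (animal 3) and 27.3 and 11.9 CPM (animal 4) in input and TRAP. Ttr therefore remained at 251 CPM or more in the pulldown of every animal with a Ttr-high input.

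**Figure D4:**
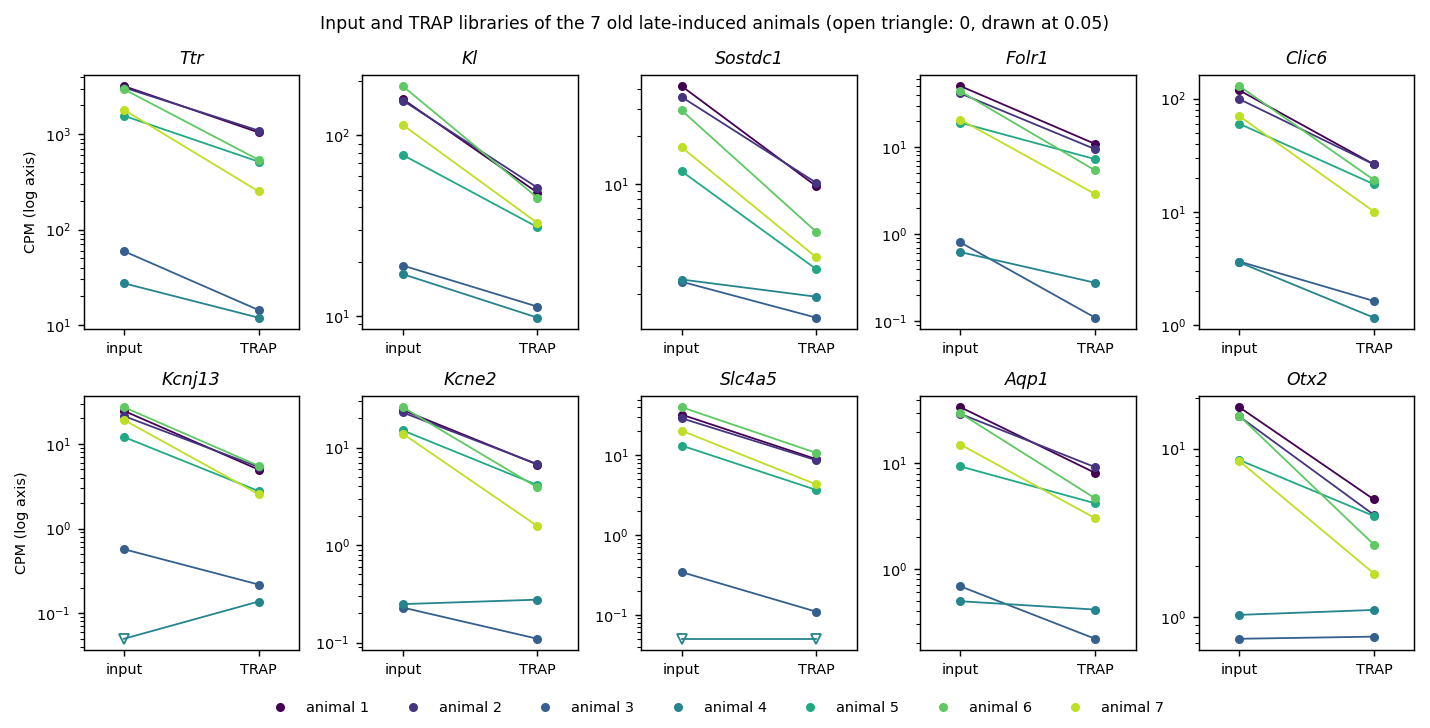
Level of each gene (CPM, log axis) in the input and the TRAP library of the 7 old late-induced animals, with a line per animal and open triangles for values of 0. All lines go down in the 5 animals with a Ttr-high input, and the 2 animals with a Ttr-low input (3 and 4) stay below them in TRAP, for Ttr at 14.3 CPM or less against 251 CPM or more.

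The separation of the animals was also present in the pulldown. For all 10 genes the TRAP values of the 2 animals with Ttr-low inputs lay below those of the 5 others. The share of all genes with this order is not given here, and genes that vary together are not 10 separate observations. The closest were Otx2, at most 1.10 CPM in the 2 and at least 1.81 CPM in the 5, and Sostdc1, at most 1.93 against at least 2.88 CPM. The widest apart was Slc4a5, at most 0.11 against at least 3.68 CPM. Because the animals form 2 separate sets, of 5 and 2, no correlation of TRAP with input level is given over all 7, and neither set is large enough for one of its own.

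Fitted across 14596 genes with edgeR, 8 of the 10 genes fell in TRAP, against 28.8% of all genes called lower and 30.4% called higher. The log2 fold changes of the 10 had a median of -1.95, against -0.02 over all genes, and ran from -2.24 (Folr1) to -1.56 (Kl). Sostdc1, for example, fell by 1.95 on the log2 scale (SE 0.45, edgeR adjusted p = 0.00128). Ttr at -1.96 ± 0.89 (SE, edgeR adjusted p = 0.0675) and Slc4a5 at -1.80 ± 0.80 (edgeR adjusted p = 0.0634) were not called, and had the largest standard errors of the 10.

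With the animal as a block, each TRAP library is compared with the input of its own animal. All 10 genes fell in that fit, where 4680 of all 14596 genes were called lower and 4650 higher. Ttr then fell by 1.82 (SE 0.15, edgeR adjusted p = 4.6e-08) and Slc4a5 by 1.81 (SE 0.11, edgeR adjusted p = 1.8e-09) on the log2 scale. Without this block, limma voom called 2 of the 10 and a fit of the females alone 3. Scaling by library size in place of trimmed means moved the median of all genes to -0.13 and lowered the share of calls that were higher in TRAP from 51.4% to 38.3%, and called 9 of the 10 genes lower.

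Of the 36 further choroid plexus genes, 34 passed the filter on low counts in these 14 libraries, and 26 of them fell, 0 rose and 8 were not called. With the animal as a block 30 of the 34 fell and 0 rose, the 4 added being Igf2, Prlr, Tmem72 and Wdr86. The largest changes without the block were in Cox8b, a cytochrome c oxidase subunit, 1500015O10Rik, and Steap1, a member of the STEAP metalloreductase family. In that fit they fell by 2.33, 2.33 and 2.26 on the log2 scale, with edgeR adjusted p-values of 0.00583, 0.00123 and 0.0101. The median over the 34 was -1.57. The 11 oligodendrocyte markers all fell, with a median of -1.33, the 9 neuronal markers had a median of -0.13 with 4 lower, and the 12 microglial markers all rose, with a median of 4.30.

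The share of the input level that was found in TRAP was then taken animal by animal, for genes with at least 10 counts in the input. For Ttr it was 32.7% in animal 1, 35.4% in animal 2, 32.99% in animal 5, 18.2% in animal 6 and 13.9% in animal 7, and 24.1% and 43.6% in animals 3 and 4 with their Ttr-low inputs. The median over the 7 animals was 32.7%, and log2(TRAP/input) averaged -1.89 ± 0.59 (SD, n = 7, exact two-sided sign-flip p = 0.0156, the smallest that 7 animals allow, adjusted 0.0260 over the 10 genes). The median share over all genes tested was 88.3% to 94.3% by animal.

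Median shares of the other genes were 32.9% for Kl, 24.0% for Sostdc1, 21.6% for Folr1, 26.6% for Clic6, 21.6% for Kcnj13, 27.5% for Kcne2, 27.6% for Slc4a5, 27.6% for Aqp1 and 28.3% for Otx2, over 5 to 7 animals with enough input counts. Kl, Sostdc1, Folr1, Clic6 and Aqp1 were lower in TRAP in all 7 animals (exact sign-flip p = 0.0156, adjusted 0.0260). Kcne2 and Slc4a5 were lower in 6 of 7 (exact sign-flip p = 0.0312, adjusted 0.0391). Kcnj13 was lower in 6 of 7 and Otx2 in 5 of 7, and neither passed (exact sign-flip p = 0.0469 and 0.0625, adjusted 0.0521 and 0.0625).

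**Figure D5:**
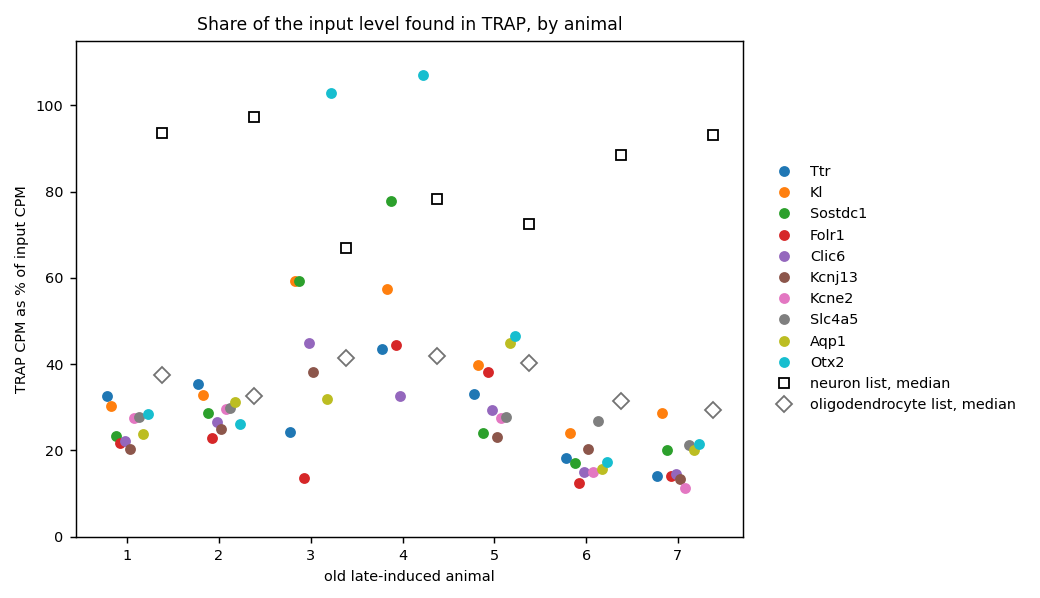
TRAP level as a percentage of the input level (both in CPM) for each gene with at least 10 input counts, by old late-induced animal, with the median of the neuron and oligodendrocyte marker lists. In the 5 animals with Ttr-high inputs (1, 2, 5, 6 and 7) all 10 genes lie between 11.2% and 46.5%, lowest in animals 6 and 7, and Otx2 reaches 103% and 107% in animals 3 and 4.

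The shares also differed between animals. The median over the 10 genes was 25.7% in animal 1, 29.04% in animal 2 and 31.1% in animal 5, but 17.1% in animal 6 and 17.2% in animal 7. Of the 10 genes, 9 had animal 6 and all 10 had animal 7 among their lowest 2 of the 5 animals with Ttr-high inputs. Inputs of animals 6 and 2 held like amounts of Ttr, 2959 and 3084 CPM, and their pulldowns 538 and 1092 CPM.

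Other lists differed between the same animals to different degrees. The median share of the 11 oligodendrocyte markers was lowest in animals 7 and 6 too, at 29.3% and 31.4%, with 32.5% to 41.8% in the other 5, and that of the 3 blood genes was 5.46% in animal 6 and 9.36% in animal 7, with 16.5% to 31.2% in the others. The median share of the 9 neuronal markers was 88.4% in animal 6 and 93.2% in animal 7, within its range of 67.0% to 97.3% over all 7. The 12 microglial markers were at 1592% and 1947% of their input level in animals 6 and 7, within a range of 1585% to 2031%. The part of these differences in the shares of the 10 genes was not tested.

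Genes were also compared with Ttr for how much of them the pulldown kept. None of the 9 differed from Ttr over the 7 animals after adjustment, with mean differences in log2 ratio from -0.16 (Folr1) to 0.56 (Otx2) and exact sign-flip p-values from 0.0625 to 0.625 (adjusted 0.469 to 0.625). Animals with fewer than 10 input counts of a gene were included here too. Kcne2 was kept a little less than Ttr in each of the 5 animals with Ttr-high inputs, by -0.25 to -0.21 on the log2 scale. Kl was kept more than Ttr in 5 of 7 animals, by up to 1.04 in the animals with Ttr-high inputs. Accordingly Kl stood at 4.62, 4.71, 6.04, 8.40 and 13.1 counts per 100 of Ttr in TRAP of animals 1, 2, 5, 6 and 7, against 4.98 to 6.35 in their inputs.

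In the 2 animals with Ttr-low inputs the genes parted. Otx2 had 13 and 16.6 counts in the inputs of animals 3 and 4 and 14 and 16 in TRAP, shares of 103% and 107%. Kl was kept at 59.2% and 57.4%, Sostdc1 at 59.2% and 77.8%, and Ttr at 24.1% and 43.6%. Kl and Sostdc1 are also the genes with the narrowest gap between the Ttr-low and Ttr-high inputs. With 2 animals no test was made, and the shares of Otx2 rest on 13 to 16.6 counts per library.

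The 10 genes vary together, and the sequences upstream of their start sites are shown for 4 genes from the RefSeq promoter table of GRCm38.p6. That table held 6 of the 10 genes, and the windows shown hold no annotated exon (for Kcne2, the first of its 2 start sites). Each line gives the 250 bases before the start site, 5′ to 3′ on the gene's strand. Capitals mark matches to 2 general promoter motifs on either strand, the CCAAT box (CCAAT) and the GC box (GGGCGG).
Kcnj13 (chr1:87394730-87394979, - strand): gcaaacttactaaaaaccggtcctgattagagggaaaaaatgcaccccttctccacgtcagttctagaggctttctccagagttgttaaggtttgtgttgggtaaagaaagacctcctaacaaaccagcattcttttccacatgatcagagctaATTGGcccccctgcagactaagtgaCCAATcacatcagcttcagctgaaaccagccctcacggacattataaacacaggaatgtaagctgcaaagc
Kl (chr5:150952357-150952606, + strand): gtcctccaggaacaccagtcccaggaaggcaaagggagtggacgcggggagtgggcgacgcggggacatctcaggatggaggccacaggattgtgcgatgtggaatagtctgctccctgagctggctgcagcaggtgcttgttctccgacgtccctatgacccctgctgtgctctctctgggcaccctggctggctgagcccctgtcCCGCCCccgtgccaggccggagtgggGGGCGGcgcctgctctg
Aqp1 (chr6:55336049-55336298, + strand): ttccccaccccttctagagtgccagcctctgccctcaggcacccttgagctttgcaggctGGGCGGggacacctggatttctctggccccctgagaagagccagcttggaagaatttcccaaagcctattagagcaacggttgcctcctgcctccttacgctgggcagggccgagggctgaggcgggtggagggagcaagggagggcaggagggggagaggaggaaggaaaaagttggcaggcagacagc
Kcne2 (chr16:92292139-92292388, + strand): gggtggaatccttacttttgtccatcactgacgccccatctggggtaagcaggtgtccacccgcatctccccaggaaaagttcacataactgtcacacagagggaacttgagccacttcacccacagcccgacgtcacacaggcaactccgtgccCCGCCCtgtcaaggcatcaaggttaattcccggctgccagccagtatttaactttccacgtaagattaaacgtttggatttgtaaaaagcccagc
The core letters bound by Otx2 and related homeobox proteins, TAATCC, were searched on both strands as well, without overlap with the other motifs. They were found in none of these 4 windows, in 1 of 10 windows over the 6 genes (1 of 4 start sites of Otx2 itself, from 211 bases upstream, on the opposite strand), and in 6.25% of all 32851 promoter windows. The CCAAT box was found in 2 of the 10 windows, from 2 of the 6 genes and with 2 matches in Kcnj13, and in 33.8% of all windows. The GC box was found in 4 of the 10 windows, from 4 of the 6 genes, and in 32.7% of all windows. A match to such short letters describes the window and does not show that a protein binds there.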

How the data were processed

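PolyA RNA of mouse hippocampus was sequenced in 36 libraries. The authors deposited 1 table with estimated counts per gene, marked raw per the file headers, of which 76.6% of nonzero values were not whole (tolerance 0.001). The build was mm10 and DESeq2 was used, per the submitters' processing notes. Aligner, counter and strand handling are not given in the sources used here. Groups, sex and animal were taken from the labels.

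CPM used the total of all gene entries, and log2 CPM a prior count of 2. Rounded counts were tested with edgeR 4.0.16 in R 4.3.3 (filterByExpr by group with a minimum count of 10, TMM, glmQLFit, glmQLFTest, Benjamini-Hochberg, threshold 0.05). TRAP against input used 14 libraries, input and TRAP of the late-induced animals, and the other comparisons 1 fit of the 29 inputs. Library totals were 12.9 to 20.4 M counts. TRAP and input of an animal were paired by the labels: their deviations from group means correlated at 0.308 to 0.470 in all 7 pairs, against a median of -0.09 between animals. Shares, proportions and correlations were tested by exact or 100000-resample permutation tests in scipy 1.17.1. On simulated data with 2-fold changes in genes drawn at random, the TRAP design recovered 92.9% of the changed genes (14525 genes tested). The design of old early against young inputs recovered 96% (14856 genes tested). For changes of 0.5 on the log2 scale these shares were 50% and 79.8%. They do not apply to the 10 genes, whose biological coefficient of variation between inputs was 75.1% (Kl) to 157% (Slc4a5).

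The 10 genes and the lists (149 of 153 genes matched) were chosen with earlier results of these data known. Named genes were the 10, the 3 called further choroid plexus genes with the largest fold change per comparison, the 8 genes most like the mean of the 10, and Cx3cr1; other genes were named after their values were seen. Alternatives were other scalings (library size, upper quartile), tools (DESeq2 1.42.0, limma 3.58.1 voom), filters, covariates, prior counts, females only and each library left out. Correlations and proportions within Ttr-high or Ttr-low inputs were added after seeing the data. Those correlations were taken without removing group means, and with permutation across groups. Exonic lengths are from GENCODE M21.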

Additional observations from a re-analysis of the deposited data

How the results depend on the processing

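Calls of the 10 genes in TRAP against input, 8 as reported, were 2 with limma voom and 3 in females alone, 8 to 10 under the other scalings, filters, covariates and DESeq2, and 7 to 10 with 1 library left out. With the animal as replicate block, which pairs the libraries, all 10 were called, and the fold change of Ttr was -1.82 in place of -1.96. In the other 4 comparisons 0 genes were called under every alternative run. In old late-induced against young inputs the uncalled changes turned negative in females alone (Ttr -0.43, Kl -0.32, Sostdc1 -0.63, Folr1 -0.46, Clic6 -0.33, Kcnj13 -0.28, Kcne2 -0.40, Slc4a5 -0.37, Aqp1 -0.57, Otx2 -0.33) and, for 8 of them, without old late-induced replicate 6. With 1 input left out they ranged from -0.036 to 0.59 for Ttr, -0.014 to 0.51 for Kl, -0.070 to 0.45 for Sostdc1, -0.041 to 0.61 for Folr1, -0.026 to 0.61 for Clic6, -0.055 to 0.67 for Kcne2, -0.086 to 0.66 for Slc4a5 and -0.18 to 0.57 for Aqp1. The cause was not tested. The median share of Ttr kept in TRAP ranged from 28.4% to 32.8% with 1 animal left out (28.6% without animal 1). In 6 of these 7 settings the adjusted exact p was 0.0521, where 6 animals allow no unadjusted p below 0.0312. Of 9 genes, 9 correlated with Ttr within the Ttr-high and 5 within the Ttr-low inputs, and the share of all genes that did so is not given. Counts of fewer than 10 in some Ttr-low inputs limit what can be said of Kcne2, Slc4a5, Kcnj13, Aqp1 and Otx2 there.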

Other observations

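Car14 ran from 5.58 to 16.2 CPM in the Ttr-low and from 13.4 to 26.8 CPM in the Ttr-high inputs, and Slc12a2 from 63.1 to 94.2 CPM and from 86.9 to 121 CPM. Slc29a4, a transporter of monoamines, ran from 18.4 to 36.7 CPM and from 31.2 to 72.9 CPM. These further choroid plexus genes kept a level well above 0 in the Ttr-low inputs, as did Slc22a8, an organic anion transporter, at 2.94 to 8.19 CPM.

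The 3 blood genes summed to 85.7 to 389 CPM in the Ttr-low and 97.0 to 1436 CPM in the Ttr-high inputs. The 8 thalamus and habenula markers, genes of tissue that borders the hippocampus, summed to 68.6 to 189 CPM and 75.7 to 316 CPM in the same order. Both lists overlapped between the Ttr-low and Ttr-high inputs. In TRAP, the 10 endothelial markers stood at 147% to 251% of their input level by animal, as the median over the list.

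Old late-induced inputs lay next to one another in the deposited numbering of libraries, as did those of each other group, so that numbering and group cannot be told apart. Ttr-high and Ttr-low inputs both occurred within each of these runs.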
